A study of Mus musculus with 6 samples.

Results

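The genes of fatty acid synthesis, elongation and desaturation followed here in LPS-treated bone marrow-derived macrophages (BMDMs) of GIT1 CKO and GIT1 fl/fl mice were Scd1, Scd2, Fads1, Fads2, Fads3, Elovl1, Elovl5, Elovl6, Fasn and Acaca. They were 10 of the 52550 genes in the deposited table, matched by symbol, and all 10 were among the 16287 genes with enough counts to be tested. The set was chosen by the function of its genes and with the comparison of these same libraries in view, since Scd1, Scd2 and Fads2 were known to be higher in GIT1 CKO. The differences between the groups, and the calls that a fit of all genes gave for these 10, are therefore a description and not independent evidence that they differ.

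RNA of 3 libraries per group was sequenced. GIT1 CKO mice carried floxed Git1 and a Cre recombinase driven by Lyz2, a promoter of myeloid cells, and GIT1 fl/fl mice, which the submitters label Git1-CWT, carried the floxed gene without Cre, on a C57BL/6 background as the study's methods give it for its mice. Bone marrow cells of both groups were grown with 25 ng/mL M-CSF for 7 days and treated with 100 ng/mL LPS, so all libraries come from stimulated cells and no untreated library is part of the comparison. The age and sex of the mice behind these libraries, and whether marrow of several mice was pooled, are not stated in the labels or methods.

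Cells make palmitate, a saturated fatty acid, from acetyl-CoA: acetyl-CoA carboxylase (Acaca) forms malonyl-CoA and fatty acid synthase (Fasn) joins the units into a chain. Elongases of the ELOVL family extend the chain in the endoplasmic reticulum, stearoyl-CoA desaturases (Scd1, Scd2) place the first double bond in saturated chains, and the desaturases of Fads1 and Fads2 act on dietary polyunsaturated chains, from which macrophages make the lipid mediators of inflammation. Many of these genes are known targets of the transcription factors SREBP and LXR, which control lipid synthesis in macrophages as in liver.

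Scd1 and Scd2 lie near each other on chromosome 19 and are close copies, so the sequence they share decides how well their counts can be told apart. Their coding sequences (GENCODE M21, GRCm38) were identical at 962 of 1074 aligned positions (89.6%), and the longest run common to both was 147 bases. That run is shown with its flanks, 5′ to 3′, with the 2 bases that differ in capitals. In Scd1 it covers coding bases 503 to 689, in 2 exons between 44400321 and 44401825 of chromosome 19 on the minus strand, and in Scd2 coding bases 512 to 698, in 2 exons between 44299682 and 44301265 on the plus strand.
Scd1: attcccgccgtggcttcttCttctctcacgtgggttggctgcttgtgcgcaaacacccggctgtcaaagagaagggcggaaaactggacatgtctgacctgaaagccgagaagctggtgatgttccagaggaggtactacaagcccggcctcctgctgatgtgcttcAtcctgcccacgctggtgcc
Scd2: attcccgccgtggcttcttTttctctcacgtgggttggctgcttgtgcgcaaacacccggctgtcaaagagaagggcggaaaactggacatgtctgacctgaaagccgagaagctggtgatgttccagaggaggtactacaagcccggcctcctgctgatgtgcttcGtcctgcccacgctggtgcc

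A read that falls between the bases in capitals fits both genes. Over the longest transcripts, 1.01% of the 100-base stretches of Scd1 were found in Scd2, 1.82% in Scd3 and 0.359% in Scd4, and 0.896% of those of Scd2 were found in Scd1. At that length, sequence common to both was a small part of each transcript. Fads1, Fads2 and Fads3 had no 100-base stretch in common, at coding identities of 60.5% to 68.7%, and neither had Elovl1, Elovl5 and Elovl6, at 41.8% to 49.5%.

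Some features of the libraries ran with genotype and touch all values given here. Levels are given as CPM, counts relative to the scaled library total as edgeR computes them. Total counts were 81131281 to 157485640 in GIT1 CKO, against 61895190 to 68083745 in GIT1 fl/fl. Git1 had 72.8 to 74.5 CPM in GIT1 CKO, against 71.9 to 103.4 CPM in GIT1 fl/fl, so that gene-level counts did not separate the genotypes, which are used here as labelled; whether these counts include the deleted part of the gene is not known. Lyz2, the gene that drives Cre, had 15379 to 16947 CPM in GIT1 CKO, against 31760 to 39522 CPM in GIT1 fl/fl. Ddx3y, Eif2s3y, Kdm5d and Uty, of the Y chromosome, together had at most 0.025 CPM in GIT1 CKO, against 26.4 to 81.5 CPM in GIT1 fl/fl, and Xist had 1051 to 1111 CPM in GIT1 CKO, against 226 to 607 CPM in GIT1 fl/fl. Every GIT1 fl/fl library thus held both Xist and Y-linked RNA, the pattern of a mix of male and female cells, at levels that varied between libraries. GIT1 CKO libraries held Xist with almost no Y-linked RNA. The make-up of the donors by sex and genotype therefore cannot be told apart for any of the 10 genes. The rank correlation across genes between GC content and a library's deviation was -0.35, -0.36 and -0.39 for GIT1 CKO libraries 1 to 3, against -0.42, 0.66 and 0.21 for GIT1 fl/fl libraries 1 to 3, so GIT1 fl/fl replicate 2 stood apart.

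Scd1 (ENSMUSG00000037071, chromosome 19, 44394451 to 44407709, minus strand, GRCm38 as for all genes below) encodes the stearoyl-CoA desaturase that converts stearate and palmitate into oleate and palmitoleate. It had 26.4, 29.6 and 30.4 CPM in the 3 GIT1 CKO libraries, against 7.65, 5.90 and 5.36 CPM in GIT1 fl/fl, here and throughout in order of replicate number. All GIT1 CKO libraries were far above all GIT1 fl/fl libraries, and no value of one group came near the other. The means were 28.8 ± 2.13 CPM in GIT1 CKO, against 6.30 ± 1.20 CPM in GIT1 fl/fl (SD, n = 3 each), and the log2 fold change was 2.19 with a standard error of 0.16. Scd1 differed most between the groups of the 10 genes. In bulk RNA, more cells with a transcript and more of it per cell cannot be told apart, here or below.

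Scd2 (chromosome 19, 44293676 to 44306864, plus strand), the stearoyl-CoA desaturase of brain and many other tissues in the mouse, had 317, 323 and 335 CPM in GIT1 CKO, against 143, 149 and 144 CPM in GIT1 fl/fl. The libraries of each group stood close together and the groups were far apart. The means were 324.8 ± 9.38 CPM in GIT1 CKO, against 145.4 ± 3.58 CPM in GIT1 fl/fl (SD, n = 3 each), and the log2 fold change was 1.16 (standard error 0.08). Scd2 was the main transcript of the pair in both groups. Per kilobase of exon, the level of Scd2 was 10.7, 9.77 and 9.86 times that of Scd1 in the 3 GIT1 CKO libraries, against 16.7, 22.7 and 24.1 times in the 3 GIT1 fl/fl libraries. Scd1 thus made up 9.0% ± 0.43 of the pair's level per kilobase in GIT1 CKO, against 4.62% ± 0.90 in GIT1 fl/fl (SD, n = 3 each).

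The other stearoyl-CoA desaturase genes of the mouse were nearly silent. Scd3 had at most 4 counts in any library and was not tested. Scd4, which lies between Scd2 and Scd1, averaged 0.514 ± 0.097 CPM in GIT1 CKO, against 0.173 ± 0.124 CPM in GIT1 fl/fl (SD, n = 3 each). The log2 fold change of Scd4 was 1.57 ± 0.58 (standard error), with an edgeR adjusted p = 0.245. It did not pass the test, and 2.58% of its 50-base stretches were also in Scd1.

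Fads2 (chromosome 19, 10064164 to 10101503, minus strand) encodes the delta-6 desaturase, which takes the first step from linoleate towards arachidonate. It had 15.4, 14.5 and 15.6 CPM in GIT1 CKO, against 7.40, 8.61 and 8.35 CPM in GIT1 fl/fl. The groups did not overlap. The means were 15.2 ± 0.58 CPM in GIT1 CKO, against 8.12 ± 0.64 CPM in GIT1 fl/fl (SD, n = 3 each), and the log2 fold change was 0.90 (standard error 0.12).

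Fads1 (chromosome 19, 10182888 to 10196870, plus strand) encodes the delta-5 desaturase, which forms arachidonate itself. It had 138.4, 138.8 and 139.4 CPM in GIT1 CKO, against 142.5, 143.1 and 142.2 CPM in GIT1 fl/fl. The 6 libraries were within a few CPM of each other, and although the GIT1 CKO values were all the lower ones, the log2 fold change was only -0.04 (standard error 0.08). Its sign turned with the processing: it was 0.06 after the trend of counts with the GC content of genes was removed from each library. The ratio of Fads1 to Fads2 per kilobase was 6.14, 6.54 and 6.12 in the 3 GIT1 CKO libraries, against 13.2, 11.4 and 11.7 in the 3 GIT1 fl/fl libraries. Transcripts of the delta-5 enzyme thus outnumbered those of the delta-6 enzyme in every library, by a smaller ratio in GIT1 CKO.

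Fads3 (chromosome 19, 10041548 to 10059671, plus strand), a family member that acts on sphingoid bases, had 4.19, 4.11 and 4.84 CPM in GIT1 CKO, against 5.83, 4.72 and 5.33 CPM in GIT1 fl/fl. The groups overlapped, with GIT1 CKO replicate 3 above GIT1 fl/fl replicate 2. The log2 fold change was -0.27 (standard error 0.16).

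The 3 Fads genes form a cluster in which Fads2 lies between Fads3, 4492 bases away, and Fads1, 81384 bases away. The log2 fold changes were -0.27 for Fads3 and -0.04 for Fads1, beside 0.90 for Fads2, and the difference between these genes was not tested. Of the 8 other tested genes around the cluster, from Fth1 to Dagla, edgeR, DESeq2 and limma-voom each called 0 at an adjusted p under 0.05, and 1 (Dagla) had an unadjusted p under 0.05. Scd2 and Scd1, both higher in GIT1 CKO, are 87586 bases apart.

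**Figure D1:**
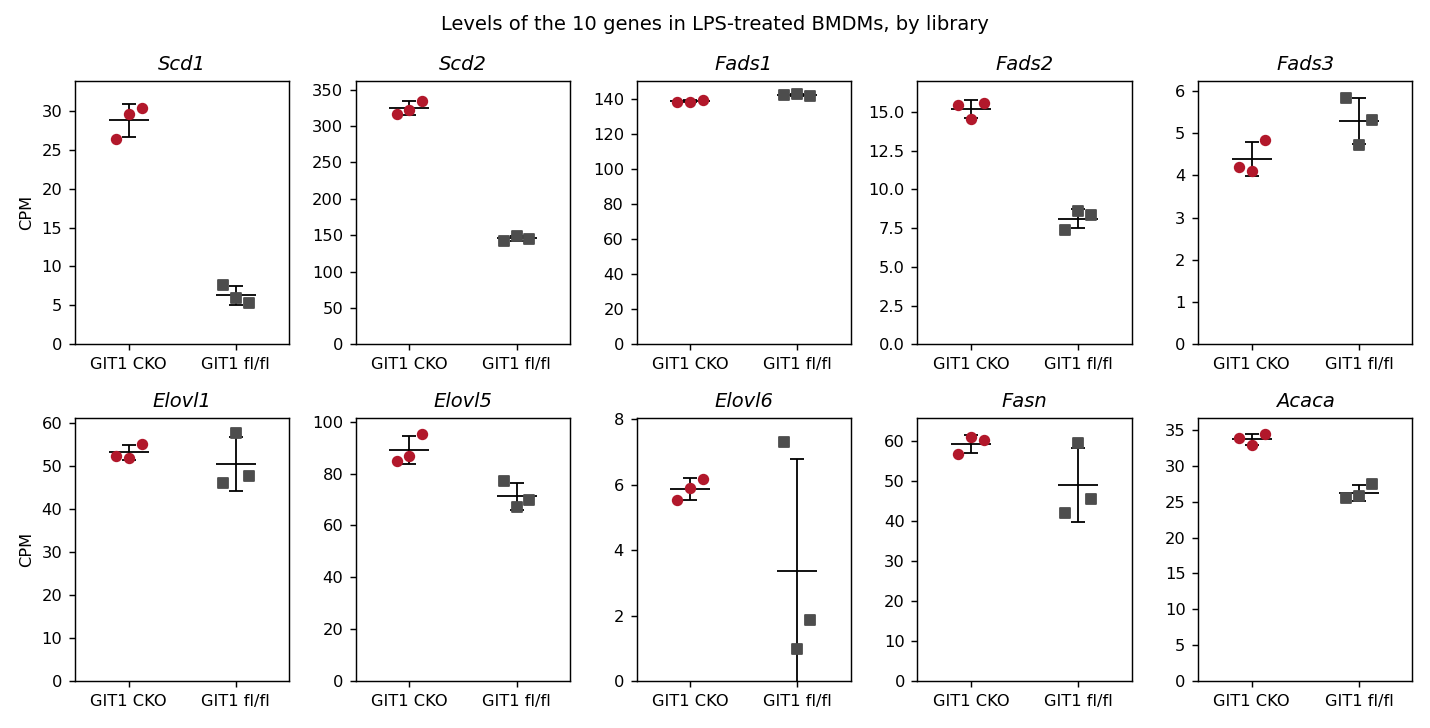
Levels of the 10 genes in CPM (y axes, linear and starting at 0) by library, with GIT1 CKO as circles and GIT1 fl/fl as squares. Horizontal bars are group means and error bars the SD over 3 libraries, cut at 0 for Elovl6 in GIT1 fl/fl. Scd1, Scd2 and Fads2 show a wide gap between the groups, Fads1 is level at 138.4 to 143.1 CPM, and Elovl6 ranges from 0.968 to 7.30 CPM within GIT1 fl/fl.

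None of the elongases was called with all 6 libraries. Elovl5 (chromosome 9, 77917364 to 77984519, plus strand), which extends polyunsaturated chains, had 84.9, 87.0 and 95.3 CPM in GIT1 CKO, against 77.1, 67.0 and 69.7 CPM in GIT1 fl/fl. All GIT1 CKO libraries were above all GIT1 fl/fl libraries by a narrow margin. The log2 fold change was 0.32 (standard error 0.10), and it was 0.13 (standard error 0.10) after removal of the GC trend.

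Elovl1 (chromosome 4, 118428093 to 118432953, plus strand), the elongase of saturated and monounsaturated very long chains, had 52.4, 52.0 and 55.2 CPM in GIT1 CKO, against 46.2, 57.7 and 47.7 CPM in GIT1 fl/fl. The GIT1 CKO values lay inside the range of the GIT1 fl/fl values. Its log2 fold change was 0.07 (standard error 0.12). The model of Elovl1 overlaps that of Cdc20 on the opposite strand, which had 555 to 1317 counts in GIT1 CKO libraries, against 381 to 608 counts in GIT1 fl/fl libraries. Whether the counting used strand is not stated in the labels or methods, and reads shared by both genes were not tested.

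Elovl6 (chromosome 3, 129532355 to 129638495, plus strand) extends palmitate to stearate, the substrate of Scd1. It had 5.53, 5.90 and 6.19 CPM in GIT1 CKO, against 7.30, 0.968 and 1.86 CPM in GIT1 fl/fl. The GIT1 CKO libraries agreed closely, whereas GIT1 fl/fl replicate 1 was above all of them and GIT1 fl/fl replicates 2 and 3 were far below. These values rested on 457, 65 and 115 counts in the 3 GIT1 fl/fl libraries. Within GIT1 fl/fl the highest value was 7.54 times the lowest, and 1.40% of the tested genes that averaged 1 CPM or more had a ratio over 7 in that group. The log2 fold change of 0.80 had a standard error of 0.68 and was not called. Without GIT1 fl/fl replicate 1 it was 2.05 (standard error 0.31) and was called, and without GIT1 fl/fl replicate 2 it was 0.38 (standard error 0.53).

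Acaca (chromosome 11, 84129672 to 84401651, plus strand), the rate-limiting enzyme of fatty acid synthesis, had 33.9, 32.9 and 34.5 CPM in GIT1 CKO, against 25.5, 25.8 and 27.5 CPM in GIT1 fl/fl. The groups did not overlap, at a modest distance. The means were 33.7 ± 0.78 CPM in GIT1 CKO, against 26.3 ± 1.09 CPM in GIT1 fl/fl (SD, n = 3 each), and the log2 fold change was 0.36 (standard error 0.09). Acaca was not called.

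Fasn (chromosome 11, 120805846 to 120824547, minus strand) had 56.7, 61.0 and 60.2 CPM in GIT1 CKO, against 42.0, 59.6 and 45.5 CPM in GIT1 fl/fl. GIT1 fl/fl replicate 2 lay within the GIT1 CKO range and the other GIT1 fl/fl libraries below it. The log2 fold change was 0.27 (standard error 0.15), not called. It was 0.46 (standard error 0.07) without GIT1 fl/fl replicate 2 and 0.44 (standard error 0.06) after removal of the GC trend, and Fasn was called in both cases.

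Across the 10 genes, 3 were called higher in GIT1 CKO (Scd1, Scd2 and Fads2) by edgeR's quasi-likelihood test at an adjusted p under 0.05, where 0.485% of all genes tested were called higher. None was called lower, where 0.27% of all genes were. At an unadjusted p under 0.05, 5 of the 10 were higher and 0 lower, where 9.06% of all genes were higher and 8.45% lower. DESeq2 and limma-voom called the same 3 genes, as did edgeR with counts thinned to one total per library. The same 3 genes also passed the rule of the study's methods (more than 1.5 times apart, unadjusted p below 0.05), which 6.48% of all genes passed as higher and 2.14% as lower. Every GIT1 CKO library was above every GIT1 fl/fl library for 5 of the 10 genes, against 13.6% of all genes, and below for 1, Fads1, against 15.1%. The median log2 fold change was 0.34 over the 10 genes and 0.01 over all genes tested. Because the comparison itself was known when the genes were chosen, nothing is read from these shares.

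With 1 library left out the calls of Scd1, Scd2 and Fads2 changed while the sizes of their differences moved little. Without replicate 1 or 2 of GIT1 CKO, or without replicate 3 of GIT1 fl/fl, the comparison left 0 of the 10 genes called, and then no more than 4 genes of the whole table were called. The log2 fold changes over the 6 comparisons with 1 library left out ran from 2.11 to 2.35 for Scd1, from 1.13 to 1.21 for Scd2 and from 0.84 to 0.97 for Fads2. Without GIT1 CKO replicate 3, Scd1 and Scd2 were called and Fads2 was not. With the GC trend removed, Scd1, Scd2 and Fads2 were called in all 6 comparisons with 1 library left out, a setting added after the data were seen. With all 6 libraries, Fads2 was not called under upper-quartile scaling or with the GC trend removed and the replicate number as a block, where Scd1 and Scd2 were, and none of the 10 was called with the block alone.

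**Figure D2:**
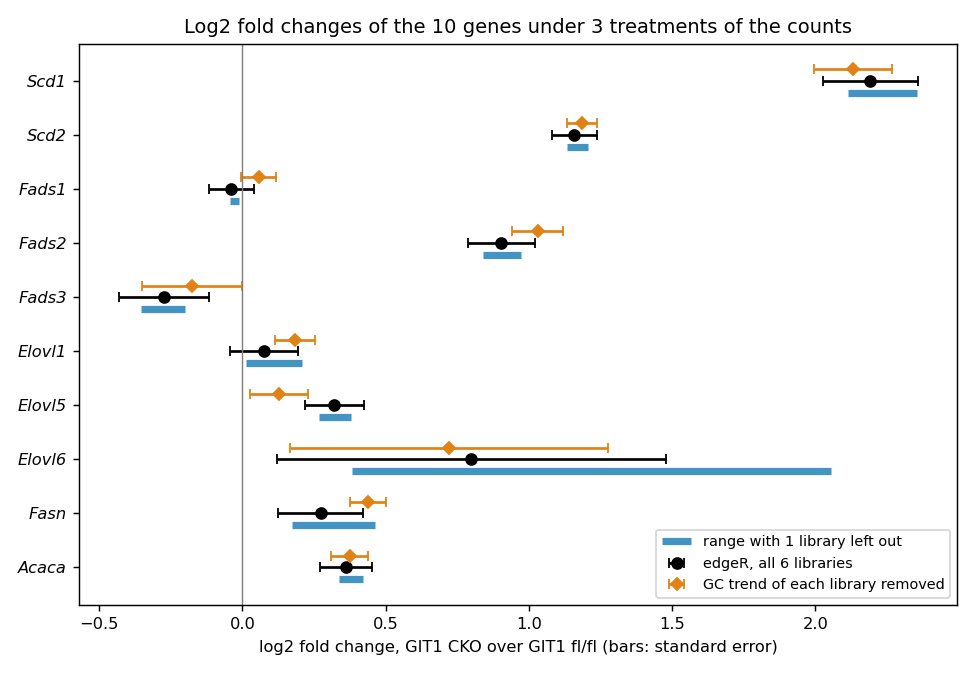
Log2 fold changes, GIT1 CKO over GIT1 fl/fl (x axis), of the 10 genes (rows), from edgeR with all 6 libraries (circles) and after removal of the GC trend (diamonds), both with standard errors. Thick bars give the range with 1 library left out, which is narrow for Scd1 (2.11 to 2.35) and Scd2 (1.13 to 1.21) and wide for Elovl6 (0.38 to 2.05).

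The 10 genes differed in GC content, from 44.0% for Elovl6 and 44.8% for Elovl5 to 57.9% for Fasn, where the median of all tested genes was 49.6%. Fasn, at the 90.3rd percentile of GC content, was highest, among GIT1 fl/fl libraries, in the one with the strongest positive GC trend, and Elovl6 and Elovl5, below the 25.0th percentile, were lowest in it. Removal of the trend changed the log2 fold change of Fasn to 0.44, of Elovl5 to 0.13, of Elovl1 to 0.18 and of Elovl6 to 0.72. The log2 fold changes of Scd1, Scd2, Fads2 and Acaca went from 2.19, 1.16, 0.90 and 0.36 to 2.13, 1.19, 1.03 and 0.37. Acaca and Fasn were then called higher beside Scd1, Scd2 and Fads2. Of all 16287 genes tested, 438 were then called higher and 365 lower, against 79 and 44 before removal of the trend. Neither Acaca nor Fasn was called when, in addition, any GIT1 CKO replicate (1, 2 or 3) or GIT1 fl/fl replicate 3 was left out or the replicate number was a block.

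Markers of other cell types were low. The 7 macrophage markers were all present. Their summed level was 28825 to 30437 CPM in GIT1 CKO, against 44677 to 53252 CPM in GIT1 fl/fl, and most of it was Lyz2. Of the rest, Adgre1 and Fcgr1 were higher in GIT1 CKO and Csf1r and Mertk lower, while Cd68 and Itgam overlapped between the groups. Adgre1 had 3966 to 4011 CPM in GIT1 CKO, against 2195 to 3254 CPM in GIT1 fl/fl. Csf1r had 5426 to 5612 CPM in GIT1 CKO, against 5989 to 7547 CPM in GIT1 fl/fl. Of the markers of adipocytes, which also express Scd1, Fasn and Elovl6 strongly, 3 of 6 (Cfd, Cidec and Lep) were at 0 in all libraries, and the 6 summed to at most 0.197 CPM in GIT1 CKO, against 0.060 CPM in GIT1 fl/fl. The stromal list summed to 36.5 to 38.8 CPM in GIT1 CKO, against 29.7 to 38.2 CPM in GIT1 fl/fl. The endothelial list summed to 22.2 to 23.8 CPM in GIT1 CKO, against 11.4 to 12.2 CPM in GIT1 fl/fl, mostly Pecam1, which myeloid cells also express. Of its 5 genes, 1 was called higher in GIT1 CKO, where 0.485% of all genes tested were. The part of this list in the result was not tested. Neutrophil, lymphocyte and erythroid lists each summed to at most 1.04 CPM.

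Levels of different genes were compared per kilobase of exon. In GIT1 CKO the order was Scd2 (59.4 CPM per kb), Fads1 (28.9), Elovl5 (25.3), Elovl1 (19.5), Scd1 (5.89), Fasn (5.42), Fads2 (4.61), Acaca (1.98), Fads3 (1.16) and Elovl6 (0.913 CPM per kb). Of neighbours in this order, Scd1 and Fasn overlapped between libraries and the others did not. In GIT1 fl/fl the order was Fads1 (29.6 CPM per kb), Scd2 (26.6), Elovl5 (20.2), Elovl1 (18.5), Fasn (4.48), Fads2 (2.46), Acaca (1.54), Fads3 (1.40), Scd1 (1.29) and Elovl6 (0.525 CPM per kb). There Elovl5 overlapped Elovl1, and each of Acaca, Fads3 and Scd1 overlapped the gene that follows it. Scd1 ranked 5 of 10 in GIT1 CKO, against 9 of 10 in GIT1 fl/fl. With the longest transcript as the length, all 10 ranks stayed in GIT1 CKO, and 5 of 10 stayed in GIT1 fl/fl, where Elovl1 moved to rank 2 and Scd2 to rank 3.

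**Figure D3:**
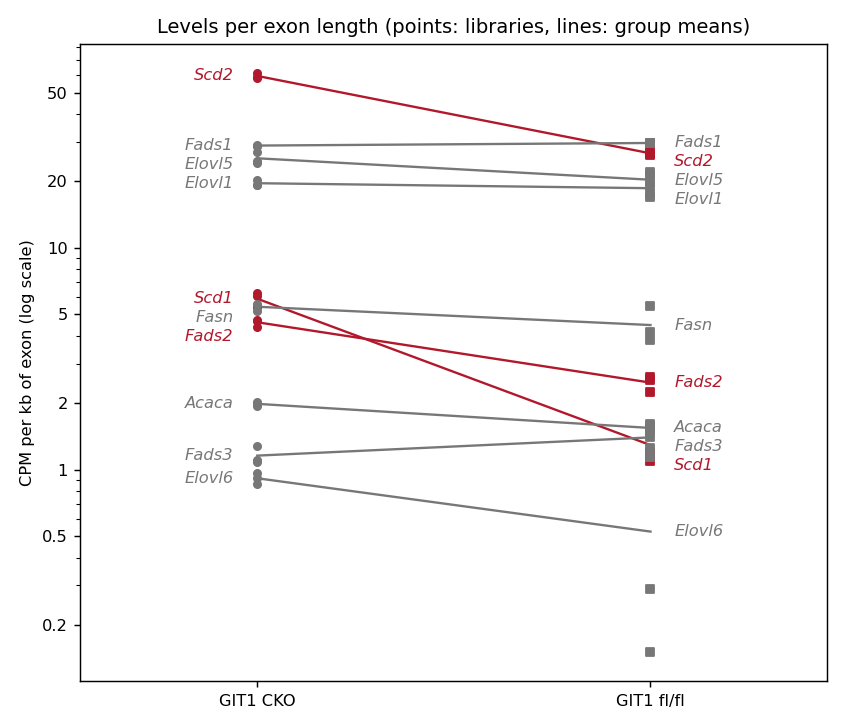
Levels per kilobase of exon (y axis, log scale) in GIT1 CKO (left) and GIT1 fl/fl (right). Points are libraries and lines join the group means; Scd1, Scd2 and Fads2 are in red. By group means, Scd1 lies above Fasn, Fads2, Acaca and Fads3 in GIT1 CKO and below them in GIT1 fl/fl, and Fads1 is at 28.9 CPM per kb in GIT1 CKO and 29.6 CPM per kb in GIT1 fl/fl. Points of Scd1 overlap those of Acaca and Fads3 in GIT1 fl/fl.

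Sequence before the start of transcription was taken from the RefSeq promoter table (GRCm38.p6). It gave 8 windows for 7 of the 10 genes: Fads2, Fads3, Fasn, Acaca, Elovl5, Elovl6 and Elovl1, the last with a pair of windows. The Acaca sequence (chr11:84195188-84195437) lies inside the gene model given above, which starts at 84129672, and is not the sequence before that start. One of the Elovl1 pair (chr4:118429451-118429700) also lies inside its gene model. Each window of 300 bases was searched on both strands for the SREBP element TCACNCCAC, the NF-Y box CCAAT and the E-box CACGTG, which stand beside each other in many genes of lipid synthesis. The bases before the start are shown for Fads2, the one called gene with a window, and for Fasn, the gene with most NF-Y boxes, with NF-Y boxes in capitals. Fads2 is read from chr19:10101504-10101753 and Fasn from chr11:120824548-120824797, both on the minus strand.
Fads2: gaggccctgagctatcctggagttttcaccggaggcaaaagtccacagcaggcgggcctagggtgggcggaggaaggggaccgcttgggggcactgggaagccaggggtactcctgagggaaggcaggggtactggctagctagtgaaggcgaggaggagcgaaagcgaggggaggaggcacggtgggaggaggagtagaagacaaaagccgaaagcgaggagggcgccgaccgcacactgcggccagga
Fasn: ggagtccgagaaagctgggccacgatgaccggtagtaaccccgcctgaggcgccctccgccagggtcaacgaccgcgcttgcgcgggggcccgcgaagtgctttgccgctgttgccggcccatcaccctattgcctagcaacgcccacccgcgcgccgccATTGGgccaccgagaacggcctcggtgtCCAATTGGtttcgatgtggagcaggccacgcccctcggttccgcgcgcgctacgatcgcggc

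The Fads2 window held none of the 3 motifs. The Fasn window held the NF-Y box at 3 places, 90, 62 and 59 bases before the start (position of the first base), of which the last 2 overlap on opposite strands. Fads3 held it at 2 places (-106 and -78), Elovl5 at 2 (-71 and -17) with an E-box at -161, and 1 window of Elovl1 at 1 place (-35). None of the 8 windows held TCACNCCAC, which was in 1.24% of the 32851 windows of all genes. Scd1, Scd2 and Fads1 had no window and were not searched. CCAAT was in 37.4% and CACGTG in 7.15% of all windows. These are matches of letters in a short window and say nothing of binding.

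The enzymes and regulators around the 10 genes were taken from 7 lists of 81 genes, of which 73 were tested. EdgeR called 0 of them higher and 1 lower, where 9 and 6 had an unadjusted p under 0.05, as did 9.06% of all genes tested as higher and 8.45% as lower. DESeq2 called Acsl3 higher and Lpin1 and Ppard lower, and limma-voom called Lpin1 lower. The median log2 fold change over the 73 genes was -0.04, beside 0.01 over all genes tested.

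Lpin1, a phosphatidate phosphatase that makes the diacylglycerol for triglycerides and phospholipids, was the called gene. It had 54.3, 58.1 and 52.4 CPM in GIT1 CKO, against 84.4, 101.8 and 91.5 CPM in GIT1 fl/fl, and its log2 fold change was -0.75 ± 0.11 (standard error), with an edgeR adjusted p = 0.0438. The groups did not overlap. The call was lost when a library was left out in 4 of 6 cases, with adjusted p = 0.245, 0.262 and 0.113 from edgeR without GIT1 CKO replicate 1, 2 and 3 and 0.225 without GIT1 fl/fl replicate 3. The other 21 tested genes among the users of acyl chains, acyltransferases and lipins, were not called, and the median of that list was -0.02.

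Among relatives of the 10 genes, Degs1, the desaturase of ceramide synthesis, averaged 78.9 ± 2.62 CPM in GIT1 CKO, against 103.8 ± 59.7 CPM in GIT1 fl/fl, and Degs2 averaged 9.79 ± 0.55 CPM in GIT1 CKO, against 9.44 ± 1.20 CPM in GIT1 fl/fl (SD, n = 3 each). Elovl2, Elovl3 and Elovl4, the elongases of very long chains in other tissues, had at most 16 counts in any library and were not tested. Of the enzymes that complete each round of elongation, the dehydratase gene Hacd4 averaged 525.8 ± 10.2 CPM in GIT1 CKO, against 406.7 ± 263.5 CPM in GIT1 fl/fl, and Tecr, the trans-enoyl-CoA reductase, averaged 70.4 ± 10.2 CPM in GIT1 CKO, against 76.2 ± 16.3 CPM in GIT1 fl/fl (SD, n = 3 each). The GIT1 fl/fl libraries varied widely for Degs1 and Hacd4, as for Elovl6. The list of elongation partners had a median of 0.36, with none called. Of its values, 5 of 6 were above 0, where 8285 of the 16287 genes tested were.

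The electron donors of desaturases were led by Cyb5r3, a cytochrome b5 reductase, with 155.6 ± 12.8 CPM in GIT1 CKO, against 147.8 ± 23.0 CPM in GIT1 fl/fl, and its relative Cyb5r4 with 121.0 ± 8.17 CPM in GIT1 CKO, against 104.9 ± 35.9 CPM in GIT1 fl/fl (SD, n = 3 each). Of the suppliers of NADPH, Pgd, a dehydrogenase of the pentose phosphate pathway, averaged 391.5 ± 2.71 CPM in GIT1 CKO, against 466.9 ± 68.0 CPM in GIT1 fl/fl, and G6pdx, the first enzyme of that pathway, averaged 374.4 ± 4.71 CPM in GIT1 CKO, against 440.5 ± 33.3 CPM in GIT1 fl/fl (SD, n = 3 each). None of these genes was called. Of the supply list, 9 of 11 values were below 0, where 8002 of the 16287 genes tested were, and the median was -0.19. The 10 genes themselves had a median above 0, but Scd1, Scd2 and Fads2 were known to be higher when the set was chosen. The difference between the lists was not tested. Thrsp, a lipogenic gene of liver and fat, had 0 counts in all libraries.

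EdgeR with all 6 libraries called none of the regulators before removal of the GC trend. Ppard was named after its values were seen. It averaged 33.7 ± 1.58 CPM in GIT1 CKO, against 51.3 ± 9.02 CPM in GIT1 fl/fl (SD, n = 3 each). Its log2 fold change was -0.61 (standard error 0.14, adjusted p = 0.132 from edgeR). DESeq2 called it lower, as did edgeR after removal of the GC trend, at -0.50 (standard error 0.10, adjusted p = 0.0414). The latter call was lost with the replicate block (edgeR adjusted p = 0.114). With the GC trend removed, it was also lost without GIT1 CKO replicate 1, 2 or 3 (edgeR adjusted p = 0.153, 0.151 and 0.106). The same held without GIT1 fl/fl replicate 3 (edgeR adjusted p = 0.078). Srebf2, the SREBP of sterol synthesis, averaged 139.7 ± 4.71 CPM in GIT1 CKO, against 117.8 ± 23.8 CPM in GIT1 fl/fl, and Rxra, the partner of LXR, averaged 102.4 ± 3.99 CPM in GIT1 CKO, against 114.7 ± 28.2 CPM in GIT1 fl/fl (SD, n = 3 each). Srebf1, the SREBP of fatty acid synthesis, named after its values were seen, averaged 65.4 ± 1.59 CPM in GIT1 CKO, against 52.5 ± 7.37 CPM in GIT1 fl/fl (SD, n = 3 each). Its log2 fold change was 0.31 (standard error 0.12, adjusted p = 0.266 from edgeR), beside 0.25 for Srebf2 (standard error 0.15, adjusted p = 0.423). After removal of the GC trend, both were called higher, Srebf1 at 0.48 (standard error 0.06, adjusted p = 0.0105) and Srebf2 at 0.41 (standard error 0.06, adjusted p = 0.0175). Both calls were lost when the first or the second GIT1 CKO library, or the third GIT1 fl/fl library, was left out as well (edgeR adjusted p = 0.069, 0.085 and 0.051 for Srebf1 and 0.088, 0.105 and 0.086 for Srebf2) and when the replicate number was a block (0.105 for each). The acyl-CoA synthetases, which activate fatty acids, were led by Slc27a1, a fatty acid transport protein, and Acsl4, which prefers arachidonate. Slc27a1 averaged 118.6 ± 1.44 CPM in GIT1 CKO, against 116.4 ± 18.9 CPM in GIT1 fl/fl (SD, n = 3 each). Acsl4 averaged 140.0 ± 8.67 CPM in GIT1 CKO, against 85.1 ± 40.5 CPM in GIT1 fl/fl (SD, n = 3 each). With all 6 libraries, edgeR called none of this list before removal of the GC trend and Acsl3 higher after it. Acsl3 was then at 0.41 (standard error 0.09, edgeR adjusted p = 0.0499). That call was lost when any 1 library was left out as well (edgeR adjusted p = 0.066 to 0.188). It was also lost when the replicate number was a block (edgeR adjusted p = 0.180).

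**Figure D4:**
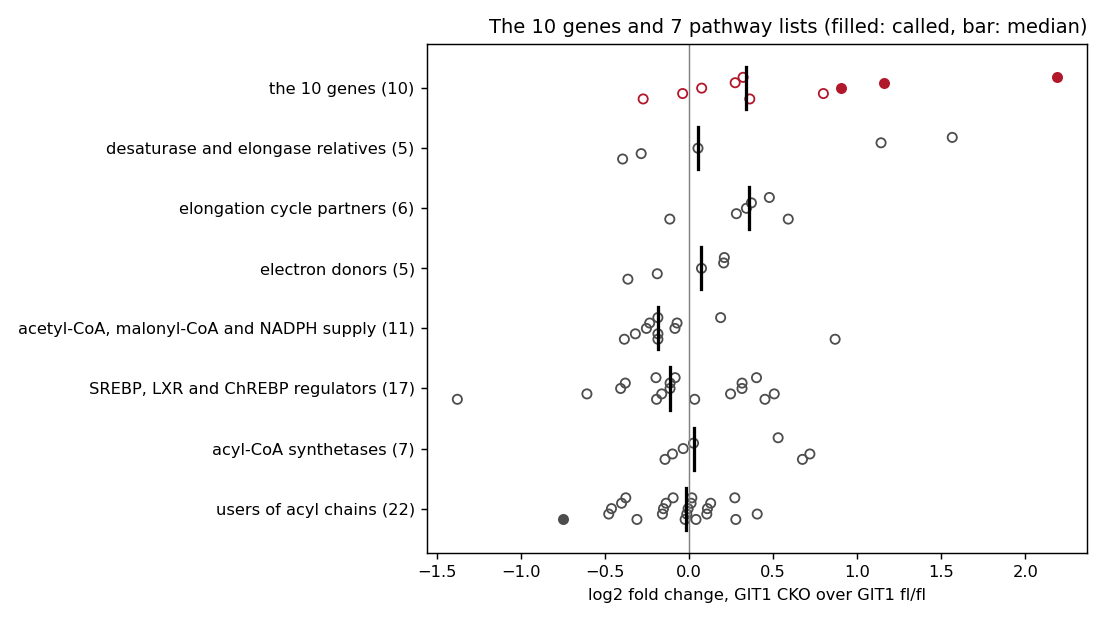
Log2 fold changes, GIT1 CKO over GIT1 fl/fl (x axis), of the 10 genes (top row) and of the tested genes of 7 pathway lists (other rows, number of genes in brackets). Each circle is a gene, filled where edgeR called it, and vertical bars are medians: 0.34 for the 10 genes and from -0.19 to 0.36 for the lists, in which Lpin1 is the one filled circle.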

How the data were processed

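RNA of LPS-treated BMDMs was sequenced in 6 libraries, which the study describes as biological replicates, 3 per group. Per the submitters' processing notes, reads were trimmed with fastp 0.17.1, aligned with HISAT2 2.1.0 and compared with DESeq2 1.18.1 in R 3.4.3; the counting tool, build and annotation are not stated in the labels or methods. The deposited counts were whole numbers per gene and library and were the input of every test. The authors' normalized counts (a signal, counts divided by 1 size factor per library), their log2 fold change and their p-value and adjusted p-value columns were not used. Of the gene IDs, 52403 matched GENCODE M21 (GRCm38), which gave locations, exon lengths and GC content (99.8% of tested genes).

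The analysis of counts used edgeR 4.0.16 (R 4.3.3): filterByExpr (minimum count 10) kept 16287 of 25239 genes with counts, TMM scaling, robust quasi-likelihood F-test with group alone, Benjamini-Hochberg adjustment over all genes tested, called at 0.05. CPM use the TMM-scaled total. The common biological coefficient of variation was 0.277. The members and lists, and the rule for named genes (all members; in each list the called genes, or the 2 with the highest mean where none was called), were chosen with earlier results of these data known.

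In each library more genes had 4 counts (703 to 793) than 3 counts (323 to 445). A count may therefore not stand for 1 independent fragment, and totals may overstate the precision. How this pattern arose was not tested. The p-values measure only the spread between these libraries. Alternatives were DESeq2 1.42.0, limma-voom (limma 3.58.1), RLE, upper-quartile or total-count scaling, no filter, 1 CPM in 3 libraries, counts thinned to 61895190, the replicate number as a block, lowess removal of the GC trend per library (span 0.3) with and without that block, no X and Y genes, and each library left out. Coding sequences were compared by global alignment; protein sequences were not used here.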

Additional observations from a re-analysis of the deposited data

How the results depend on the processing

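Of the 10 genes, 3 were called higher in GIT1 CKO and 0 lower in the comparison as reported. The count of genes called higher was 0 with the replicate block, 5 with the GC trend removed, 2 with both of these, 2 with upper-quartile scaling (Fads2 lost in the last pair), and 0 to 4 with 1 library left out (3 to 6 with the GC trend removed as well, added with the data in view). No gene of the 10 was called lower under any setting. Genes past the fold change rule of 1.5 were 3 under all other settings, and 3 to 4 with 1 library left out. The log2 fold change of Fads1 was -0.04 as reported and turned positive with total counts only (0.0026), no filter (0.0030), the GC trend removed (0.057), that with the replicate block (0.059) and that without GIT1 CKO replicate 1, 2 or 3 (0.063, 0.061 or 0.046) or GIT1 fl/fl replicate 1, 2 or 3 (0.097, 0.0089 or 0.053).

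Genes of the pathway lists called higher were 1 with DESeq2, 3 with the GC trend removed and 0 to 2 with 1 library left out. Those called lower were 2 with DESeq2, 0 with upper-quartile scaling, 0 with total counts only, 0 with the replicate block, 2 with the GC trend removed, 0 with the GC trend removed and the block, and 0 to 1 with 1 library left out. Of all genes, 79 were called higher and 44 lower; DESeq2 called 619 and 293, the replicate block 0 and 1, the GC trend removed 438 and 365, and that with the block 31 and 16. With 1 library left out these were 0 to 853 and 1 to 306. With the longest transcript as length, 5 members kept their rank of level in GIT1 fl/fl.

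For each library, the deviation of each gene from the mean of its group was taken. Between same-numbered libraries of the groups, these deviations had correlations of -0.048, 0.040 and 0.0075. Those of other pairs of libraries ran from -0.080 to 0.077, so the numbers gave no sign of pairing. The cause of each change was not tested. With 3 libraries per group, the loss of 1 leaves few degrees of freedom, and levels under about 1 CPM rest on few counts.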
